A study of Homo sapiens with 4 samples.

Results

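The EGFR family comprises 4 receptor genes and a set of ligand genes, and 10 of these were followed here. The receptors were *EGFR*, *ERBB2*, *ERBB3* and *ERBB4*. The ligands were *AREG*, *EREG*, *TGFA*, *HBEGF*, *EPGN* and *BTC*. The members were taken by symbol, as every gene probe whose RefSeq accession maps to one of these genes, which gave 17 of 58201 probes and 10 of 25006 named genes. Expression was measured in HML58-3 cells, a derivative of HCT116, which is a colorectal carcinoma line. HML58-3 reports demethylation through a luciferase gene whose promoter is methylated. All groups shared this cell line, its medium and its reporter. On day 1 the cells received mock treatment or medium with 1 µM of decitabine (DAC), of OR-2003 or of OR-2100, and they were collected on day 5. DAC is a cytidine analog that traps DNA methyltransferases and lowers DNA methylation as cells divide, and OR-2003 and OR-2100 are prodrugs that release it. The drugs were dissolved in DMSO, and the labels do not say whether the mock culture received this solvent. There was 1 single-colour Agilent array per condition and 4 arrays in all, and differences therefore stand without replicates or p-values.

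Ligands of this family are made as membrane proteins and are released by proteases at the cell surface. The ligands followed here bind *EGFR* or *ERBB4*. These receptors pair with each other, with *ERBB2*, which has no ligand of its own, or with *ERBB3*, whose kinase is weak. The paired receptors recruit adaptors that switch on the RAS-ERK and PI3K-AKT pathways, and ERK signalling in turn raises genes for feedback inhibitors and for some of the ligands. In colorectal cancer, *AREG* and *EREG* are the best known ligands of the family.

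Values are levels, given as log2 intensity on a scale where the 75th percentile of an array is 0, and differences are the level with a drug minus the level on the mock array. A gene was called induced when its level was at least 2-fold higher with a drug and reached -1 there. It was called reduced when its level was at least 2-fold lower with a drug and was -1 or more on the mock array. A gene with several probes is counted by its main probe, the one with the highest mean signal over the 4 arrays. This choice decides the call for *ERBB3*, and that for *EGFR* with OR-2003. Probes of different genes bind with different strength, so levels were compared only within a probe. The 300 probes printed in 10 spots varied between spots by an SD that corresponds to 0.091 for a difference between arrays, which covers the spotting and not the culture. Probes well above background numbered from 31601 to 33282 per array, and none was saturated. The median probe among the 27921 well above background on all arrays was itself lower than on the mock array, by -0.21 with DAC, -0.19 with OR-2003 and -0.23 with OR-2100. Differences relative to this median are therefore also given for the members well above background.

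The cells had the markers of their origin. Of 7 epithelial genes, 6 had a level of -1 or more on all 4 arrays, and the exception was *VIL1*, which lay at background on the mock array. The epithelial adhesion genes *EPCAM* and *CDH1* were lower with the drugs, by -1.46 to -1.52 and by -1.09 to -1.25, while the keratin genes *KRT8*, *KRT18* and *KRT19* were higher by 0.31 to 0.59. Of 6 marker genes of leukocytes, fibroblasts and endothelium, none reached -1 on all arrays, and *CD14* did so on the 3 drug-treated arrays. Their summed level was -0.30 on the mock array and 0.69 to 0.77 with the drugs, and *PECAM1* and *COL1A2* among them had been below the background limit on the mock array. These genes moved with the drugs beside every result given here, and their part in the results was not tested. In RNA from whole cultures, fewer cells that express a gene and less RNA per cell cannot be told apart.

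With the drugs, *EREG* and *BTC* were the member genes reduced, and *EGFR* was the member gene induced. *EREG* was 4.83 to 5.24-fold lower and *BTC* 3.11 to 4.03-fold lower. *EGFR* lay at the threshold, 1.95 to 2.27-fold higher. *AREG* was lower without reaching 2-fold, *ERBB3* depended on the probe, and *ERBB2*, *ERBB4*, *TGFA* and *HBEGF* differed from the mock array by at most 1.28-fold with every drug. *EPGN* was not well above background on any array. The plot of the levels of the 17 probes on the 4 arrays shows all of these values.

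**Figure D1:**
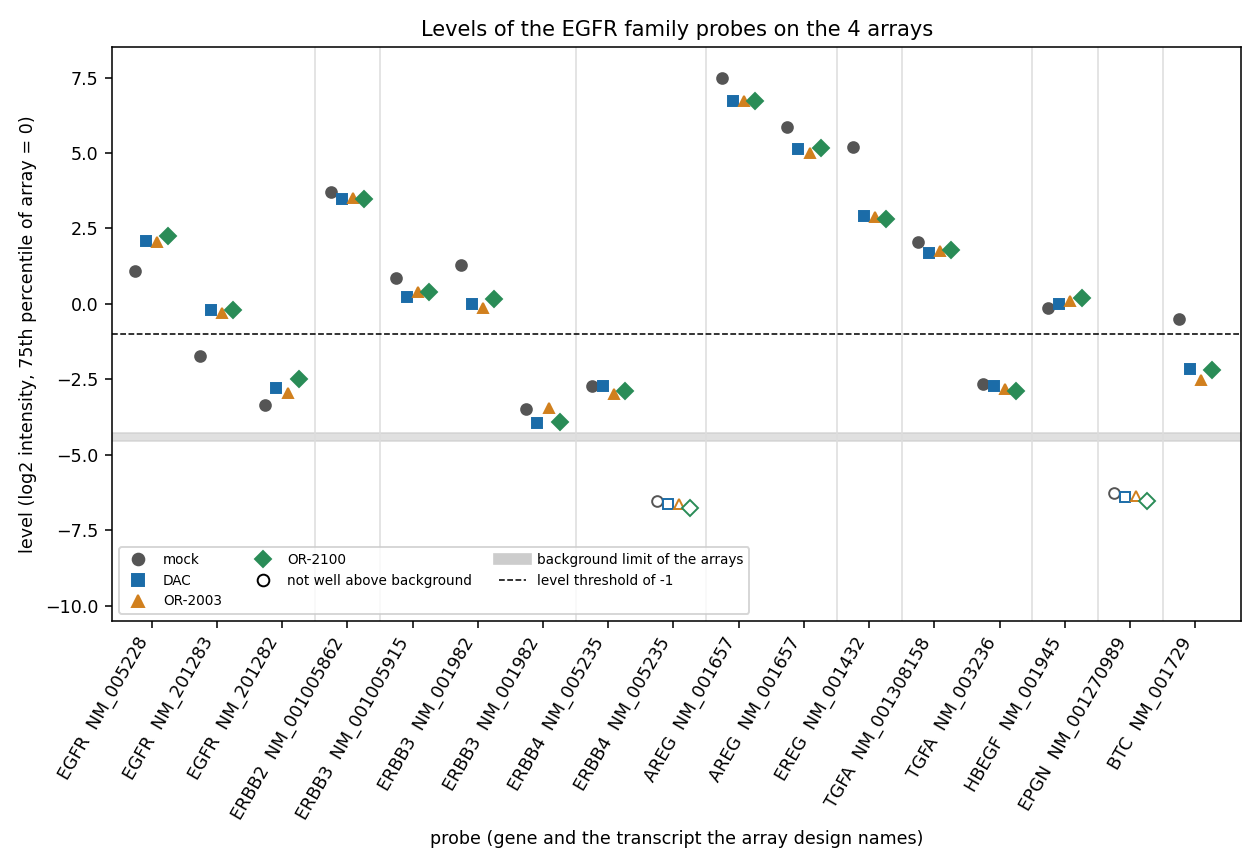
Level of each of the 17 member probes on the 4 arrays, as log2 intensity with the 75th percentile of each array at 0, with open symbols for probes not well above background and a grey band for the background limits of the arrays, -4.29 to -4.55. The 3 drug-treated arrays lie together and apart from the mock array for *EREG*, *BTC*, both *AREG* probes and both bright *ERBB3* probes, among others. The same holds for the *EGFR* probes other than the dimmest. Levels of different probes are not comparable.

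By gene, 2 of the 10 members were reduced by DAC, 2 by OR-2003, 2 by OR-2100 and the same 2 by every drug. Over all 25006 named genes, the share reduced was 5.96% with DAC, 6.05% with OR-2003, 6.82% with OR-2100 and 5.21% with every drug. A gene could be reduced only from a level of -1 or more on the mock array, which 8 of the 10 members had, and among all genes with such a level the share reduced by every drug was 10.8%. The number of members is too small to read a departure from these shares. *EGFR* was the 1 member of 10 induced with DAC and with OR-2100, and 0 were induced with OR-2003 or with every drug. The shares of all genes induced were 5.77% with DAC, 5.89% with OR-2003, 5.81% with OR-2100 and 5.27% with every drug. The median difference over the 10 members was -0.31 with DAC, -0.28 with OR-2003 and -0.25 with OR-2100, beside -0.11, -0.093 and -0.23 over all named genes. Of the 9 members well above background on all arrays, 7 were below the mock array with every drug and 2, *EGFR* and *HBEGF*, were above it.

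Counted by probe, 3 of the 17 were reduced by every drug, those of *BTC* and *EREG* and 1 probe of *ERBB3*, where the share over all probes was 3.41%. A single probe of the 17, of *EGFR*, was induced by every drug, where the share over all probes was 3.13%. Of the 17 probes, 15 were well above background on all arrays, and the other 2, of *EPGN* and *ERBB4*, were so on none. Over all 58201 probes, only 27921 were so on all arrays, so the shares over all probes are not a like comparison. The 17 probes are also too few to read a departure from them.

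Among the ligands, the largest difference was that of *EREG*, which encodes epiregulin, a ligand of *EGFR* and *ERBB4*. Its single probe had a level of 5.20 on the mock array, and of 2.93 with DAC, 2.89 with OR-2003 and 2.81 with OR-2100, the order kept for all values below. The 3 drug-treated arrays lay within 0.12 of each other and far below the mock array. The differences were -2.27, -2.31 and -2.39, or -2.06, -2.12 and -2.16 relative to the median probe. *EREG* was still a bright probe with the drugs, well over the level of -1 that the methods take as positive expression.

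*BTC* encodes betacellulin, which also binds both *EGFR* and *ERBB4*. Its probe stood at -0.51 on the mock array, and at -2.14, -2.52 and -2.19 with the drugs, so that it passed from above to below the level of positive expression on each drug-treated array. The differences were -1.64, -2.01 and -1.68, or -1.43, -1.82 and -1.45 relative to the median probe. On the drug-treated arrays the probe was dim, and its difference depended on the background correction. With normexp, a model-based correction with an offset of 50, it was -0.92, -1.05 and -0.96, and *BTC* was then reduced only by OR-2003.

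*AREG* encodes amphiregulin, a ligand of *EGFR*. Its main probe had a level of 7.50 on the mock array and of 6.71, 6.71 and 6.73 with the drugs. Its other probe had 5.87, and 5.14, 4.99 and 5.16. Both probes were thus lower on each drug-treated array, and the 2 sets of differences overlapped. For the main probe they were -0.79, -0.79 and -0.77, a 1.71 to 1.73-fold lower level, and for the other -0.72, -0.88 and -0.70. Relative to the median probe, the main probe was lower by -0.58, -0.60 and -0.54. *AREG* was therefore not called reduced, though with the median of each array set to 0 its difference with OR-2003 was -1.01 and passed 2-fold.

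The other ligands stood near their mock level. *TGFA*, the gene of transforming growth factor alpha, had a main probe at 2.05 on the mock array and at 1.69, 1.75 and 1.80 with the drugs, with differences of -0.36, -0.30 and -0.25, or -0.15, -0.11 and -0.021 relative to the median probe. Its other probe, for the transcript NM_003236, was dim, at -2.65 on the mock array and -2.74 to -2.89 with the drugs. *HBEGF*, the gene of heparin-binding EGF-like growth factor, went the other way, from -0.15 on the mock array to 0.0044, 0.11 and 0.18. Its differences of 0.15, 0.26 and 0.33 became 0.36, 0.45 and 0.56 relative to the median probe. *EPGN*, the gene of epigen, lay between -6.26 and -6.52 on the 4 arrays, below the background limit of each, and gives no fold.

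**Figure D2:**
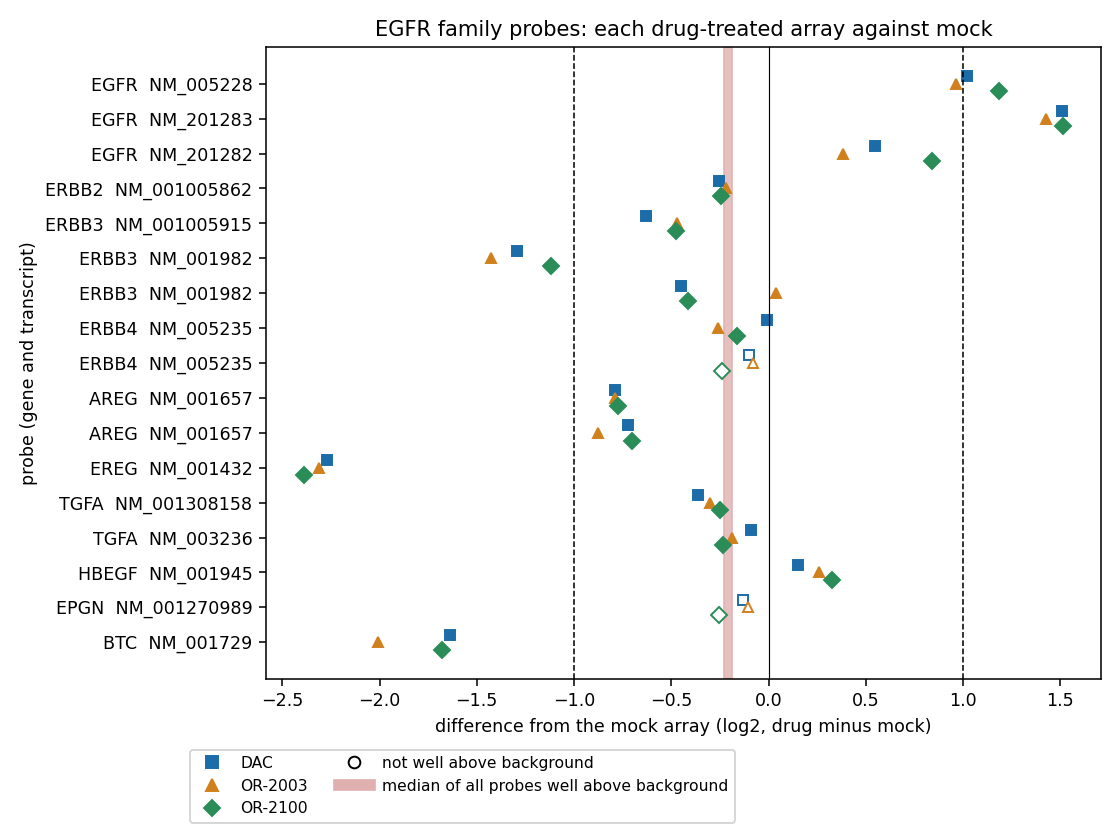
Difference of each drug-treated array from the mock array for the 17 member probes, in log2 units, with dashed lines at 2-fold and a band at the medians of all probes well above background, -0.19 to -0.23. *EREG*, *BTC* and 1 probe of *ERBB3* lie left of the lower line with every drug, and 1 probe of *EGFR* lies right of the upper line with every drug.

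*EREG*, *AREG*, *BTC* and *EPGN* lie next to each other on the long arm of chromosome 4, so the region before the start of the first 3 is shown, since DNA methylation is laid on CG pairs there. Each is the RefSeq promoter entry of build GRCh38.p14, a window of 300 bases around the start with most of it upstream, 5′ to 3′ on the strand of the gene, with CG pairs in capitals. *EREG* is at chr4:74364895-74365194 on the plus strand, *AREG* at chr4:74444886-74445185 on the plus strand and *BTC* at chr4:74794474-74794773 on the minus strand.
EREG: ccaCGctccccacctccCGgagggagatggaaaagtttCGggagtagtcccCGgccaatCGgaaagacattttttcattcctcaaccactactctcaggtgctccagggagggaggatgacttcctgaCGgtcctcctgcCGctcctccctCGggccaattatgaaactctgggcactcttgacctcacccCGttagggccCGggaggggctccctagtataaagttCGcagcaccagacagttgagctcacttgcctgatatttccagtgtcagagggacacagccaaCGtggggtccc
AREG: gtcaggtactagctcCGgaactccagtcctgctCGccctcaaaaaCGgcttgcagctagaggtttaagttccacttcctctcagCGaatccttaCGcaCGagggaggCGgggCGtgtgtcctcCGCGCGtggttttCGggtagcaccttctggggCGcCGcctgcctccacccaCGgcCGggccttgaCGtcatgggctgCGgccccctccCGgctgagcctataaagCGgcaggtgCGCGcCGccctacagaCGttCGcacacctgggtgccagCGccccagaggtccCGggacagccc
BTC: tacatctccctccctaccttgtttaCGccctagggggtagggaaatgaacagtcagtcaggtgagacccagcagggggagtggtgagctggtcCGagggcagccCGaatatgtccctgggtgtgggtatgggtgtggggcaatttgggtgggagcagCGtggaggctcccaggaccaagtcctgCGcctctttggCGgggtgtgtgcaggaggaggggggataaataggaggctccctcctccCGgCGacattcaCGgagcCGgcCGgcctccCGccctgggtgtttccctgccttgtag
The windows of *EREG* and *BTC*, the genes with the larger differences, held 12 CG pairs each, and that of *AREG* held 27. Over 35116 RefSeq promoters of the same length the median was 14, and 48.3% had 12 or fewer and 73.8% had 27 or fewer. The window of *EPGN* held 4, and those of *HBEGF* and *TGFA*, which has 2 entries, held 38 and 30 and 22. The letters TATAAA, searched on both strands, were found in the windows of *EREG*, *AREG* and *EPGN* and in 11.5% of all promoters. The cyclic AMP response element TGACGTCA was found in that of *AREG* and in 1.85% of all promoters. The AP-1 letters TGANTCA were found in none of the windows of the ligands, and in 7.71% of all promoters. Methylation of these windows was not analysed here.

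The 5 protein-coding genes on each side of this group, in the RefSeq order, were then set beside it. They were chosen after the values of the members had been seen. No other protein-coding gene lies between *EPGN* and *BTC*. Of the 10 neighbours, 7 were well above background on all arrays, 1 was induced by every drug and 2 were reduced by every drug, beside shares of 5.27% and 5.21% of all genes, and of 10.8% reduced among those at -1 or more on the mock array. *CXCL2*, a neutrophil chemokine gene on the *EPGN* side, was induced, with differences of 1.86, 1.77 and 2.21. *MTHFD2L*, which encodes a mitochondrial folate enzyme and lies just before *EPGN*, was reduced, by -1.32, -1.28 and -1.57. *PARM1*, just after *BTC*, was reduced by -1.11, -1.04 and -1.19. The next genes, *RCHY1* and *THAP6*, were lower by -0.74 to -1.05 and by -0.77 to -0.83. *CXCL3* was higher by 2.30 to 2.56, under the level of -1, and *CXCL5* differed by -0.047, 0.032 and 0.044.

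**Figure D3:**
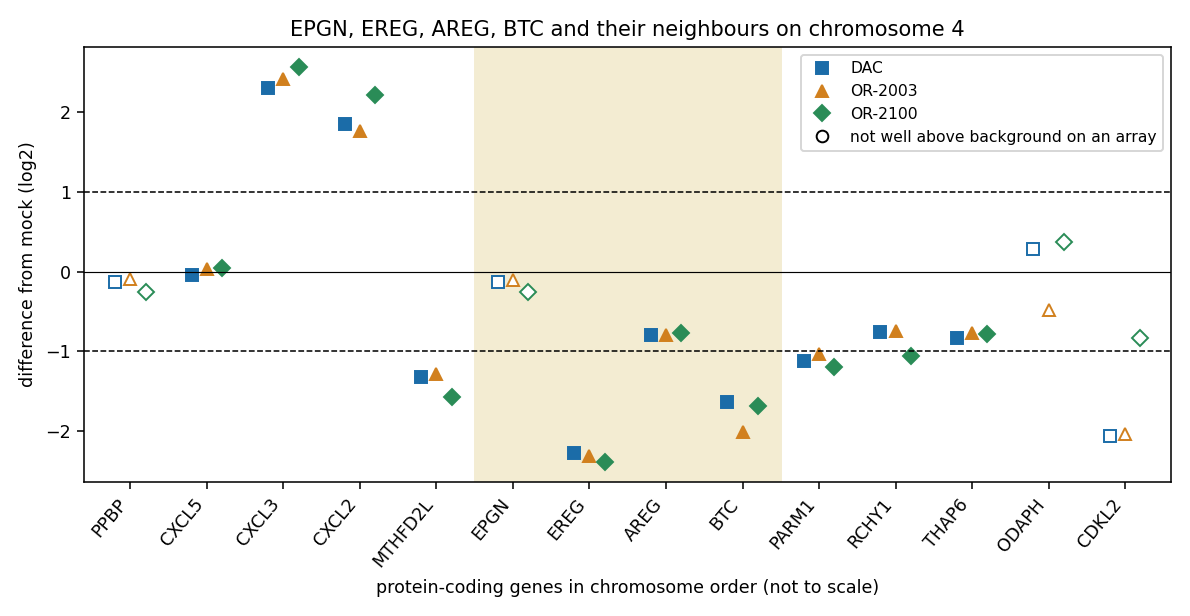
Difference from the mock array, in log2 units, for *EPGN*, *EREG*, *AREG* and *BTC* (shaded) and the 5 protein-coding genes on each side, in chromosome order and not to scale, with open symbols where any array was not well above background. The differences of *EREG*, near -2.3, lie below those of the neighbours well above background.

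Among the receptors, *EGFR* was higher on each drug-treated array by all 3 of its probes, and the size for the dimmer probes depended on the background correction. The main probe, for the transcript NM_005228, which encodes the full receptor, had a level of 1.07 on the mock array and of 2.10, 2.04 and 2.26 with the drugs. Its differences of 1.02, 0.96 and 1.18 straddled the 2-fold threshold. They were 1.23, 1.15 and 1.41 relative to the median probe. With quantile normalization, or with only probes well above background as the reference, *EGFR* was induced by every drug. The call with DAC was lost with normexp, at 0.97, and with the median of each array set to 0, at 0.90. The probe for NM_201283 went from -1.72 to -0.21, -0.29 and -0.20 and was induced by every drug, 2.68 to 2.86-fold. Under the other settings its differences ran from 0.69 to 1.74. The lowest were those with normexp, at 0.84, 0.69 and 0.80, where the call was lost with every drug. The dim probe for NM_201282 went from -3.34 to -2.79, -2.96 and -2.50, under the level of positive expression. With normexp its differences of 0.55, 0.38 and 0.84 became 0.079, 0.052 and 0.081. These last transcripts are shorter forms that encode parts of the extracellular domain. Which transcripts each probe binds was not tested.

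The promoter window of *EGFR* is shown beside those of the ligands because it is rich in CG pairs. It lies at chr7:55018767-55019066 on the plus strand of GRCh38.p14 and is written as above.
EGFR: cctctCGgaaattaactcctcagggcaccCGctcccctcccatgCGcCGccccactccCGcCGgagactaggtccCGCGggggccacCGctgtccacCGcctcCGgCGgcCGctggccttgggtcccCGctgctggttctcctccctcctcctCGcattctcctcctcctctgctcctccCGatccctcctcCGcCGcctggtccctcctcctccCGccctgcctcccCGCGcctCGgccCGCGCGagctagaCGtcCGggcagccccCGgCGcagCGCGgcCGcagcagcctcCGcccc
It held 33 CG pairs, and 84.4% of promoters held as many or fewer. A further RefSeq start of *EGFR* had 1 CG pair, with 11% of promoters at as many or fewer. The window of this further start had 2 matches to TATAAA and 2 to the AP-1 letters. The windows of *ERBB2* and *ERBB4* held 24 and 19 CG pairs, and that of *ERBB2* had 1 match to the AP-1 letters.

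*ERBB3*, whose product signals mainly as the partner of another receptor, gave different values by probe. The probe A_23_P349416, for the full transcript NM_001982, had a level of 1.28 on the mock array and of -0.016, -0.15 and 0.16 with the drugs, and was reduced by every drug, 2.17 to 2.69-fold. Under the other settings its differences ran from -0.78 to -1.65, so that the call did not hold in all of them. The main probe, for NM_001005915, a short transcript that encodes a secreted form, had 0.86 on the mock array and 0.23, 0.39 and 0.38 with the drugs. Its differences of -0.63, -0.47 and -0.47 did not reach 2-fold, and were -0.42, -0.28 and -0.24 relative to the median probe. The same quantity for A_23_P349416 was -1.08, -1.24 and -0.89. The remaining probe, dim at -3.45 to -3.94, was lower with DAC and OR-2100, by -0.45 and -0.42, and differed by 0.040 with OR-2003. Both bright probes were thus below their mock level with every drug, by different amounts, and *ERBB3* was called reduced or not by the choice between them.

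*ERBB2* is the best measured member, since its probe is printed in 10 spots. Its level was 3.72 ± 0.083 (SD, 10 spots) on the mock array, 3.47 ± 0.083 (8 spots) with DAC, 3.50 ± 0.079 (9 spots) with OR-2003 and 3.48 ± 0.064 (9 spots) with OR-2100. The differences of -0.25, -0.22 and -0.24 exceeded the spread between spots but were close to those of the median probe of the arrays. Relative to the median probe they were -0.043, -0.030 and -0.014, within the spread between spots. *ERBB4* was dim, with a main probe at -2.73 on the mock array and at -2.74, -2.99 and -2.89 with the drugs, and differed from the median probe by 0.20, -0.073 and 0.066. Its other probe was not well above background on any array, so that *ERBB4* was under the level of positive expression throughout.

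The drugs were compared at the same dose and day, over 9 member genes and 3 pairs of drugs, or 27 differences. None reached 2-fold. The largest was that of *BTC*, lower with OR-2003 than with DAC by 0.37 and than with OR-2100 by 0.33, and the next was that of *ERBB4*, at 0.25 between DAC and OR-2003. *EGFR* was higher with OR-2100 than with OR-2003 by 0.22. Over the 27921 probes well above background, 95% of differences between drugs were under 0.42 for OR-2003 and DAC, 0.49 for OR-2100 and DAC, and 0.52 for OR-2100 and OR-2003, and none of the 27 exceeded its limit. With 1 array per drug there is no interval for these differences, and small differences between the compounds were not measurable here.

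Of the pathway around these genes, other ligands of the family came first. *EGF*, the founding ligand, was not well above background on any array. None of the 5 genes *EGF*, *NRG1*, *NRG2*, *NRG3* and *NRG4* was induced or reduced. Of all genes, 5.27% were induced and 5.21% reduced by every drug. *NRG1*, a ligand of *ERBB3* and *ERBB4* named after its values were seen, was at background on the mock array and at least 5.05 to 5.90-fold higher with the drugs, at levels of -1.62 to -1.84, which are under the threshold. Of 7 genes that release the ligands or inhibit their release, 0 were called, beside the same shares. *TIMP3*, the inhibitor among them, was higher by 1.02, 0.93 and 1.10, at levels of -1.85 to -2.02 with the drugs, under the threshold. *ADAM17*, the main protease for *AREG* and *TGFA*, was at 1.99 on the mock array and 1.76 to 1.85 with the drugs, and *ADAM10*, which cleaves betacellulin, was higher by 0.48 to 0.58.

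Of 23 adaptors and kinases, 1 was induced and 1 was reduced by every drug, beside 5.27% and 5.21% of all genes. The share reduced was 10.8% among genes at -1 or more on the mock array. The median differences were -0.11, -0.083 and -0.039. They turned to 0.091, 0.12 and 0.18 with only probes well above background as the reference, and to 0.033, 0.046 and 0.050 with quantile normalization. *PLCG1*, the phospholipase that binds the activated receptor, went from -1.01 on the mock array to 0.18, 0.082 and 0.36. With normexp, or with the median of each array set to 0, *PLCG1* was not called by every drug. *GRB7*, an adaptor that binds ERBB receptors and lies next to *ERBB2* on chromosome 17, went from 1.12 to -0.088, -0.31 and -0.099. It was no longer called by every drug with only probes well above background as the reference. *ERBB2*, its neighbour, differed by -0.22 to -0.25.

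Of 19 feedback inhibitors, 1 was reduced by every drug and 0 were induced, beside 5.21% and 5.27% of all genes. Among genes at -1 or more on the mock array, the share reduced was 10.8%. The median differences were -0.16, -0.23 and -0.31, beside -0.11, -0.093 and -0.23 over all named genes. All 19 were well above background on all arrays, and the median of all such probes was -0.21, -0.19 and -0.23. In the list, 14 genes were lower and 4 higher with every drug. With only probes well above background as the reference, the medians of the list were 0.037, -0.030 and -0.085. The gene reduced was *ERRFI1*, whose product MIG6 binds and blocks the kinase of the ERBB receptors. It had a level of 7.10 on the mock array and of 5.48, 5.34 and 5.35 with the drugs, 3.07 to 3.38-fold lower. The ERK phosphatase gene *DUSP6* was lower by -0.68 to -0.73 and was not called. Of the other DUSP genes in the list, *DUSP5* was higher by 0.60 to 0.66 and *DUSP4* differed by -0.0096 to -0.083, and neither was called.

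Of 18 ERK-responsive genes, 3 were reduced and 1 was induced by every drug, where the shares over all genes were 5.21% reduced and 5.27% induced, and 10.8% reduced among genes at -1 or more on the mock array. The median differences were -0.48, -0.47 and -0.60, beside -0.11, -0.093 and -0.23 over all named genes. All 18 were well above background on all arrays, and the median of all such probes was -0.21, -0.19 and -0.23. In the list, 11 genes were lower and 6 higher with every drug. With quantile normalization the medians were -0.28, -0.27 and -0.24. The transcription factor gene *ETV1* was lower by -3.15, -2.99 and -3.37, and 3 of its 4 probes were reduced by every drug. The cytokine gene *LIF* was lower by -1.90, -2.05 and -1.68, and *VGF*, the gene of a secreted neuropeptide precursor, by -2.13, -2.05 and -2.15. *EPHA2*, a receptor tyrosine kinase gene, was higher by 1.11, 1.01 and 1.03, and was not called by every drug with normexp or with the median of each array set to 0. *ETV5* and *PHLDA1* passed the threshold with OR-2003 alone, at -1.16 and -1.08. With the other drugs they were at -0.91 to -0.97 and at -0.94 to -0.96. *FOS* and *JUN* went the other way, higher by 0.84 to 0.99 and by 0.72 to 0.86, and were not called. The plot of the gene lists sets these genes beside the members.

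**Figure D4:**
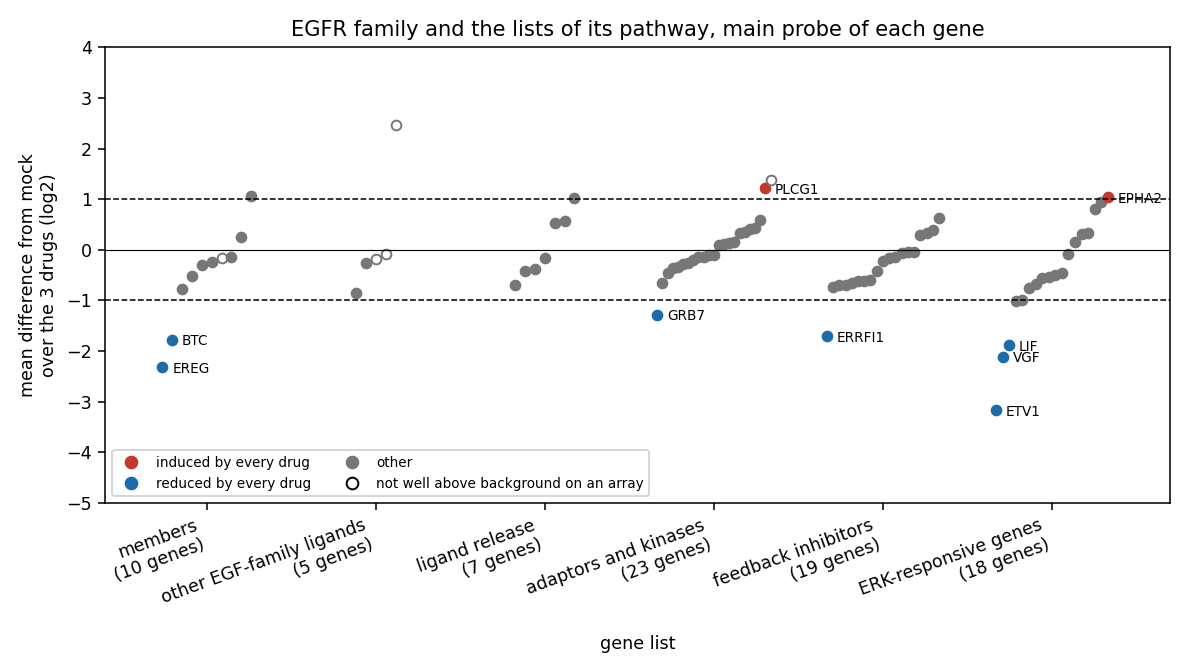
Mean difference from the mock array over the 3 drugs, in log2 units, for the main probe of each gene in 6 lists, with genes induced or reduced by every drug in colour and open symbols for probes not well above background on an array. Every list has more genes below 0 than above it, and few genes in any list lie past 2-fold. The median probe well above background was itself lower, by -0.21 with DAC, -0.19 with OR-2003 and -0.23 with OR-2100.

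The direction of the members was then recomputed under 8 other ways of processing the arrays. The sign held for 8 of the 10 genes with every drug, and the exceptions were *ERBB4* and *EPGN*. The series value table holds the same values and could not change a sign. Averaging probes could not change it for genes with a single probe, such as *EREG*, *BTC* and *HBEGF*. For *HBEGF*, *ERBB2* and *TGFA* some differences were within the spread between spots, where a sign says little. *HBEGF* was at 0.0073 with DAC under normexp. With only probes well above background as the reference, *ERBB2* was at -0.0176 with OR-2003 and *TGFA* at -0.0275 with OR-2100. The difference of *EREG* ran from -2.07 to -2.53 over all drugs and settings, that of *AREG* from -0.34 to -1.01, and that of *EGFR* from 0.74 to 1.41.

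**Figure D5:**
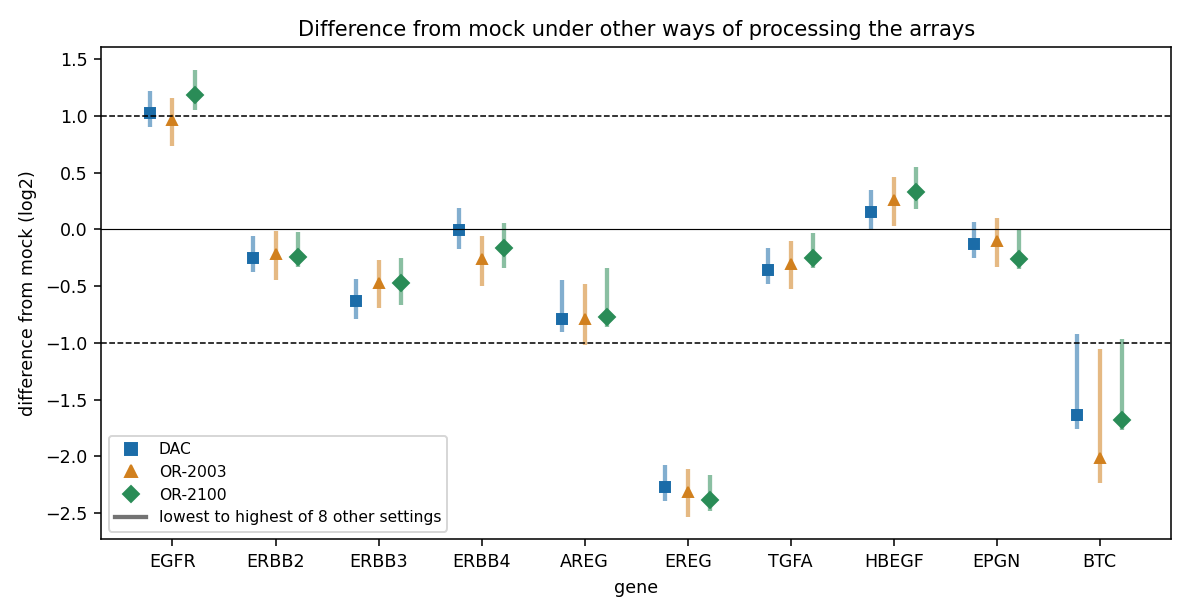
Difference from the mock array, in log2 units, of the main probe of each member (symbols) with the lowest to highest value over 8 other settings (lines), and dashed lines at 2-fold. *EREG* stays past 2-fold in every setting, *EGFR* spans the 2-fold line with DAC and OR-2003, *BTC* with DAC and OR-2100, and *AREG* with OR-2003.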

How the data were processed

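Expression was measured in HML58-3 cells with 1 array for each of 4 conditions. Groups were taken from the sample titles. The authors deposited the scanner output of Feature Extraction 12.1.0.3, in which the intensity of each spot is background-corrected and not yet normalized between arrays. The series value table holds the same values and no columns of other samples (0). Of 60901 gene spots per array, those marked as non-uniform or as outliers were left out (52 to 98 per array). The log2 intensities of the spots of a probe were averaged, then shifted to put the 75th percentile over gene probes at 0 on every array. Well above background means that over 0.5 of the unmarked spots of a probe passed the test of the scanner software. Names came from RefSeq accessions of the array design, matched for 34892 probes. "At least" folds were taken against the higher of the probe's own mock signal and the lowest signal well above background there. The thresholds follow the methods of the study, and the rule for reduced genes mirrors them. 10 alternatives were run. The counting was tested on simulated data. The members and the lists were chosen with earlier results of these data known, and some genes of the adaptor and kinase list are not reported here and were left out of its counts. Every member was named with every probe, and from each list all genes called with every drug; others were named after their values were seen. No test was run between conditions, and the number of arrays limits the precision. Tools were R 4.3.3 with limma 3.58.1 for normexp, and Python 3.11.15 with pandas 2.3.3, numpy 2.4.6 and matplotlib 3.10.9.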

Additional observations from a re-analysis of the deposited data

How the results depend on the processing

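No paired analysis was possible because there is a single array per condition (1), and likewise no array could be left out in turn. The cause of the shifts below was not tested. With normexp and an offset of 50, the members induced by DAC numbered 0, those reduced numbered 1 with DAC, 1 with OR-2100 and 1 with every drug, the adaptors and kinases induced by every drug 0, and the ERK-responsive genes induced 0. With quantile normalization, the median member difference with DAC was -0.19, and 1 member (*EGFR*) was induced by OR-2003 and 1 by every drug. With only probes well above background used for the 75th percentile, the median member differences were -0.11, -0.081 and -0.031, 1 member was induced by OR-2003 and 1 by every drug, 0 adaptors and kinases were reduced by every drug, and 2 ERK-responsive genes were induced. This scaling moved the median of all probes to -0.013, 0.012 and -0.0063, and turned *ERBB4* to 0.19 with DAC and 0.060 with OR-2100. With the median set to 0, 0 members were induced by DAC, 3 were reduced by OR-2003 (*AREG* was added), 4 ERK-responsive genes were reduced by every drug, the median member differences were -0.42 with DAC and -0.50 with OR-2003, and 0 of the adaptors and kinases and 0 of the ERK-responsive genes were induced by every drug. At a 4-fold threshold, 0 members were induced by DAC and 0 by OR-2100, 1 (*EREG*) was reduced by DAC, by OR-2100 and by every drug, 0 of the adaptors and kinases were induced and 0 were reduced, 0 feedback inhibitors were reduced, and 0 ERK-responsive genes were induced. Without the level threshold, 1 of the other ligands and 2 of the adaptors and kinases were induced by every drug. The series value table, a floor at the background limit and keeping marked spots left these counts within 1.5 times. When all probes of a gene were averaged, 4 ERK-responsive genes were reduced by every drug. In all, 172 of the values that answer a comparison were taken as unchanged, 32 moved, and 0 reversed. Most of these values are counts, which cannot reverse and were taken as unchanged within 1.5 times. Median differences were taken as unchanged within the spread between spots, 0.091. The series value table could move none of them, since it holds the same values. Signal over background limits *BTC* with the drugs, *ERBB4* and the dim probes of *EGFR*, *ERBB3* and *TGFA*, and *EPGN* has no measured level.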
